A study of Saccharomyces cerevisiae with 6 samples.

Results

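The 7 genes described here encode yeast nucleolin (NSR1) and the protein side of the box H/ACA small nucleolar ribonucleoproteins (snoRNPs): the core subunits CBF5, GAR1, NHP2 and NOP10 and the assembly factors NAF1 and SHQ1. They were selected by gene symbol among the 5379 genes on the array, and all 7 had 1 spot each. The choice was made with values of these arrays already known, since NSR1, CBF5 and NHP2 stood among the lowest ratios. Their values are therefore given as a description, without a test of their own.

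A box H/ACA snoRNP uses a small guide RNA to place its enzyme at chosen uridines of ribosomal RNA, which are turned into pseudouridine, and one such particle also takes part in the cleavages that release the small subunit RNA. Cbf5 is the pseudouridine synthase, the yeast counterpart of human dyskerin, while Nhp2, Nop10 and Gar1 complete the particle. Shq1 holds newly made Cbf5, Naf1 accompanies the particle during its assembly and is exchanged for Gar1 as it matures, and Nsr1 is an abundant nucleolar RNA-binding protein needed for normal processing of the small subunit RNA precursor.

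Log ratios of transcript levels were measured on spotted arrays with a pair of dyes, in Saccharomyces cerevisiae strain S288C grown in rich glucose medium at 25 °C. Methanol was added to 5% at an optical density of 1 and the cells were exposed for 2 h, while control cultures grew for the same time without it. Treated RNA carried Cy5 and untreated RNA Cy3 on each of 3 arrays of independent biological samples, made from poly(A) RNA. Every array was read once with the laser at high power and once at low power. Dyes were not swapped, so a gene-specific dye effect cannot be told apart from the treatment.

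All values below are log2 ratios of methanol over untreated, after averaging the scans of an array and centring each array on its median gene. The direction is likely rather than stated, as it rests on treated RNA carrying Cy5, and the base of 2 is an assumption. Ratios give no level, so neither the abundance of one gene against another nor the strain label could be checked. Between 4399 and 5339 genes had a value per array, and Pearson's r across genes between arrays lay between 0.817 and 0.855, where genes are not independent replicates.

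The transcripts of nucleolin and of the H/ACA core were lower in methanol on every array, whereas SHQ1 lay near 0 and NAF1 above it. NSR1, CBF5 and NHP2 stood at 0.263, 0.279 and 0.292 times the untreated level, GAR1 at 0.469 times and NOP10 at 0.632 times. NAF1 stood at 1.35 times on 3 arrays and SHQ1 at 0.919 times on 2 arrays. Within every array NAF1 was the highest member.

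NSR1 (YGR159C) had log2 ratios of −2.04, −2.23 and −1.52 on arrays 1, 2 and 3, with a mean of −1.93 ± 0.37 (SD, n = 3). Array 3 gave the smallest difference, and no array came near 0. Of the 4336 genes with a value on all arrays, NSR1 ranked 12 from the lowest.

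CBF5 (YLR175W), the catalytic subunit, read −1.78, −1.95 and −1.79, a mean of −1.84 ± 0.10 (SD, n = 3). Its arrays lay within 0.18 of each other, the narrowest range of the 6 members with a value on all 3. It ranked 17 from the lowest. NHP2 (YDL208W), the subunit of the L7Ae family that binds the guide RNA, read −1.35, −2.48 and −1.49, with a mean of −1.78 ± 0.61 (SD, n = 3). Its range of 1.13 was the widest among these 6, because array 2 stood below the other two. On array 2 it had a high-power value alone, while the other arrays averaged both scans. It ranked 22 from the lowest.

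GAR1 (YHR089C), which joins when the particle matures, read −0.81, −1.50 and −0.97, with a mean of −1.09 ± 0.36 (SD, n = 3). NOP10 (YHR072W-A), a very small protein that lies against the catalytic domain of Cbf5, read −0.34, −1.09 and −0.57, with a mean of −0.66 ± 0.38 (SD, n = 3). Both had their lowest ratio on array 2 and their highest on array 1. The NOP10 reading frame has a coding length of 177 bases, the shortest of the set, where the others run from 471 to 1524. Of all genes on arrays 1, 2 and 3, 28.6%, 8.07% and 16.1% lay below NOP10, so on array 1 it was well inside the bulk of the genes.

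NAF1 (YNL124W) read 0.27, 0.52 and 0.50, with a mean of 0.43 ± 0.14 (SD, n = 3). Every array put it above 0, and 75.1% of genes had a lower mean. SHQ1 (YIL104C) read −0.04 on array 1 and −0.20 on array 3 and had no value on array 2, so it was not tested. On those arrays 46.5% and 35.8% of genes lay below it, which places it near the middle of the distribution.

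**Figure D1:**
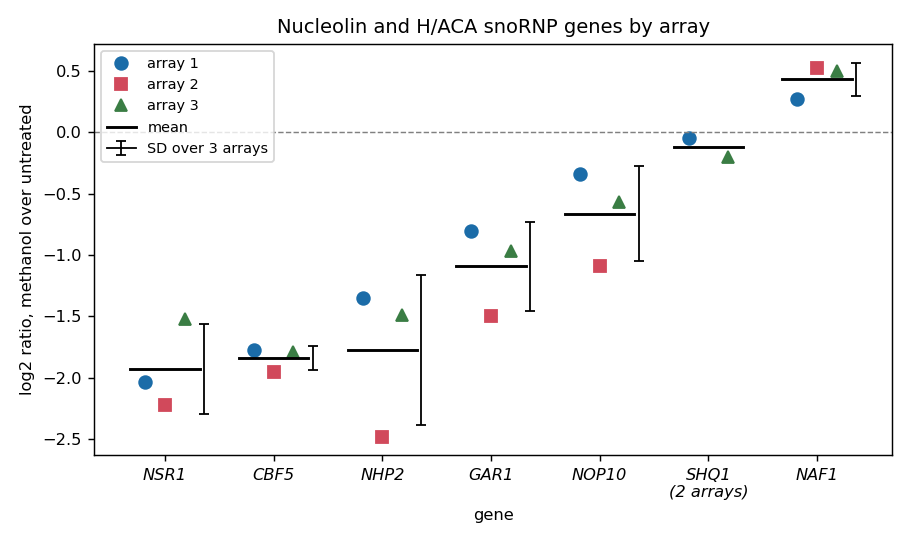
Log2 ratio of methanol over untreated (vertical axis) for each of the 7 genes (horizontal axis), with 1 symbol per array, a bar for the mean and a bracket for the SD over 3 arrays (none for SHQ1, with 2 arrays). NSR1, CBF5, NHP2, GAR1 and NOP10 lie below 0 on every array, SHQ1 lies near 0 and NAF1 lies above 0 from 0.27 to 0.52.

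By limma's fit over all genes, 5 of the 6 tested members were called lower, where 24.2% of all genes tested were, and NAF1 was called higher, as were 26% of all genes. Calls in either direction made up 50.3% of the genes tested. Called means a Benjamini-Hochberg adjusted p under 0.05. Nothing is read from these counts, because the same contrast chose the members. The calls of the 5 lower members held without any 1 array. NAF1 was not called without array 1, 2 or 3, where it read 0.51, 0.38 and 0.40. The median of the 6 tested members was −1.43, against −0.01 for all genes tested. Without array 2 the median of the same 6 genes was −1.15, and with SHQ1, which could then be tested, it was −0.89.

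**Figure D2:**
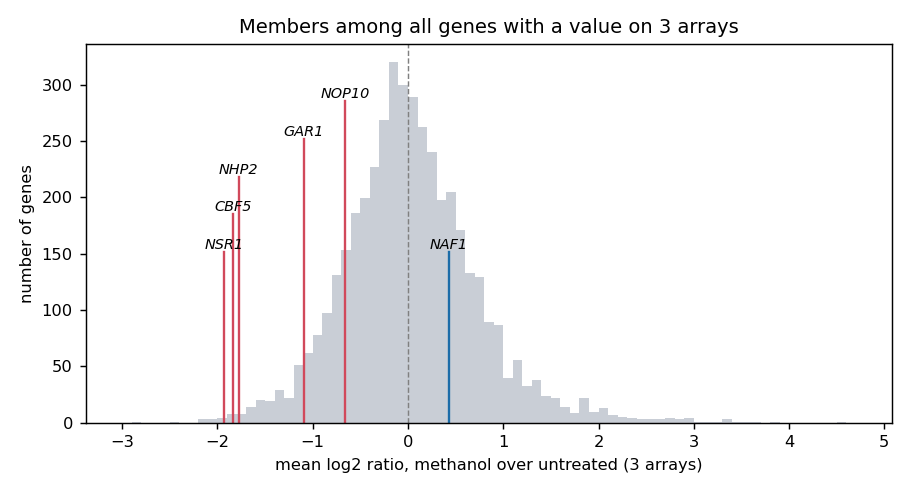
Number of genes (vertical axis) by mean log2 ratio of methanol over untreated (horizontal axis, 3 arrays) for the 4336 genes with a value on all arrays, with lines at the 6 members among them (line heights only separate the names). NSR1, CBF5 and NHP2 lie in the lower tail at −1.93, −1.84 and −1.78, and NAF1 lies at 0.43.

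Among themselves the lower genes fell into an order that was partly stable. NSR1, CBF5 and NHP2 changed places between arrays: NSR1 was lowest on array 1, NHP2 on array 2 and CBF5 on array 3. NSR1 minus CBF5 averaged −0.09 ± 0.31 and CBF5 minus NHP2 −0.06 ± 0.52 (SD, n = 3), so these 3 did not differ beyond their spread. GAR1 lay above all of them and below NOP10 on every array.

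One pair kept nearly the same difference on every array. GAR1 minus NOP10 read −0.47, −0.41 and −0.40, a mean of −0.43 ± 0.04 (SD, n = 3), although each gene on its own varied by an SD near 0.4. This pair was picked for its SD, the smallest among pairs with 3 arrays, and the differences of the other such pairs had SDs from 0.21 to 0.71. Array 2 held the lowest value of all 5 lower genes, and the SD over all its genes was 0.854, against 0.744 and 0.687 on arrays 1 and 3. The share of all genes below −1 was 9.57% on array 2, 6.50% on array 1 and 5.19% on array 3. No member had a low-power value on array 2, while on arrays 1 and 3 most of the lower genes averaged both scans. Whether this or the wider spread of array 2 accounts for the lower values there was not tested.

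Each core gene lay below NAF1 on every array, and below SHQ1 on the 2 arrays where SHQ1 had a value. The mean of CBF5, GAR1, NHP2 and NOP10 was −1.07, −1.76 and −1.20, or −1.34 ± 0.36 (SD, n = 3). The core mean minus NAF1 was −1.34, −2.28 and −1.70, a mean of −1.77 ± 0.47 (SD, n = 3). NOP10, the highest core gene, also lay below NAF1 on each array, with differences of −0.61, −1.61 and −1.06. SHQ1 also lay above the core mean on both of its arrays, and the core mean minus SHQ1 was −1.02 on array 1. NOP10 and SHQ1 lay close, with NOP10 minus SHQ1 at −0.29 on array 1 and −0.37 on array 3.

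The assembly factors also had fewer scans with a value. NAF1 had a high-power value on 3 arrays and SHQ1 on 2, and neither had a low-power value. The core genes and NSR1 had 4 or 5 scans with a value. Over all genes with values on at least 2 arrays, the median log2 ratio was −0.04 for those with 2 scans, 0.01 with 3, −0.0012 with 4, 0.01 with 5 and −0.05 with 6.

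Low-power values existed for NSR1, CBF5, GAR1 and NHP2 on arrays 1 and 3 and for NOP10 on array 3. As deposited, NSR1 read −1.99 at high and −2.18 at low power on array 1, and −1.62 and −1.47 on array 3. CBF5 read −1.81 and −1.84 on array 1, and −1.90 and −1.74 on array 3. NHP2 read −1.57 and −1.24 on array 1, and −1.62 and −1.41 on array 3. The shift between scans was thus smaller than the ratio itself for each of these genes, and NHP2 had the largest, with −0.30 on array 1 after the difference of the scans' medians was removed. GAR1 read −0.92 and −0.80 on array 1, and −0.98 and −0.99 on array 3. NOP10 read −0.54 and −0.65 on array 3. No member had a value in both scans of array 2, so the test of the scan difference, which called 0.125% of genes, could not include them.

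**Figure D3:**
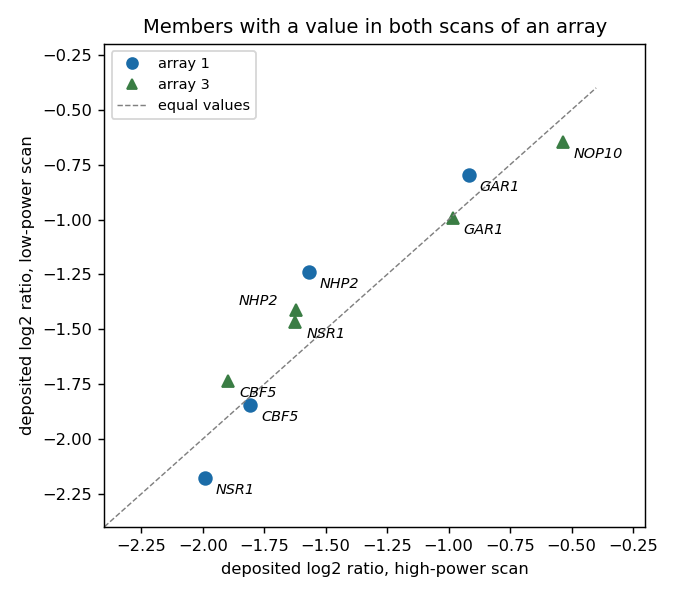
Deposited log2 ratio in the low-power scan (vertical axis) against that in the high-power scan (horizontal axis) for each member and array with both, with a dashed line of equal values. The points follow the line, and NHP2 on array 1 lies farthest above it, at −1.57 in the high-power and −1.24 in the low-power scan.

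Genes that work beside the H/ACA particle were taken from 9 lists of partners, which held 69 distinct genes, 54 of them tested. Of these 28 were called lower and 2 higher by limma, where 24.2% and 26% of all genes were, and their median was −0.42. Without array 1 the number called lower was 18, where 13.1% of all genes tested were. Without array 1 or array 2 the number called higher was 1, where 672 of 4393 and 1218 of 5147 genes tested were.

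The box C/D snoRNPs are the sister particles that guide ribose methylation. Of their 4 core genes 3 were called lower, where 24.2% of all genes tested were, and all 4 had means below 0. The median of the 4 was −1.47, beside −1.43 for the 6 tested nucleolin and H/ACA genes and −1.09 when SHQ1 was included. NOP58, a scaffold subunit, read −1.54, −2.26 and −1.64 (mean −1.82 ± 0.39, n = 3; limma adjusted p = 0.000197). NOP56, its partner in the scaffold, read −1.73, −2.18 and −1.18 (mean −1.69 ± 0.50, n = 3; limma adjusted p = 0.000477). NOP1, the fibrillarin methyltransferase, read −1.14, −1.19 and −1.42 (mean −1.25 ± 0.15, n = 3; limma adjusted p = 0.000309). The fourth, SNU13, is shared with the U4 spliceosomal particle.

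SNU13 read −0.23, −0.11 and −0.26 and did not pass the test (mean −0.20 ± 0.08, n = 3; limma adjusted p = 0.206). It belongs to the same L7Ae family as NHP2 and binds guide RNA in the other particle. NHP2 minus SNU13 was −1.13, −2.37 and −1.23 on the arrays, a mean of −1.58 ± 0.69 (SD, n = 3). The enzymes of both particles lay closer, with CBF5 minus NOP1 at −0.59 ± 0.20 (SD, n = 3).

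The wider L7Ae/L30e family holds SNU13 and ribosomal proteins. Of the 5 genes listed 3 were called lower, where 24.2% of all genes tested were, and all 5 had means below 0 (median −0.76). RPS12, a small subunit protein, read −0.71, −1.14 and −0.80 (mean −0.88 ± 0.23; limma adjusted p = 0.00179). RPL8A and RPL8B, near-identical copies of a large subunit protein whose signals may be shared, had means of −0.78 ± 0.14 and −0.76 ± 0.17. RPL30 stood at −0.32 ± 0.10 and did not pass (limma adjusted p = 0.0612). NHP2 lay below RPS12 on every array, by a mean difference of −0.89 ± 0.39 (SD, n = 3).

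**Figure D4:**
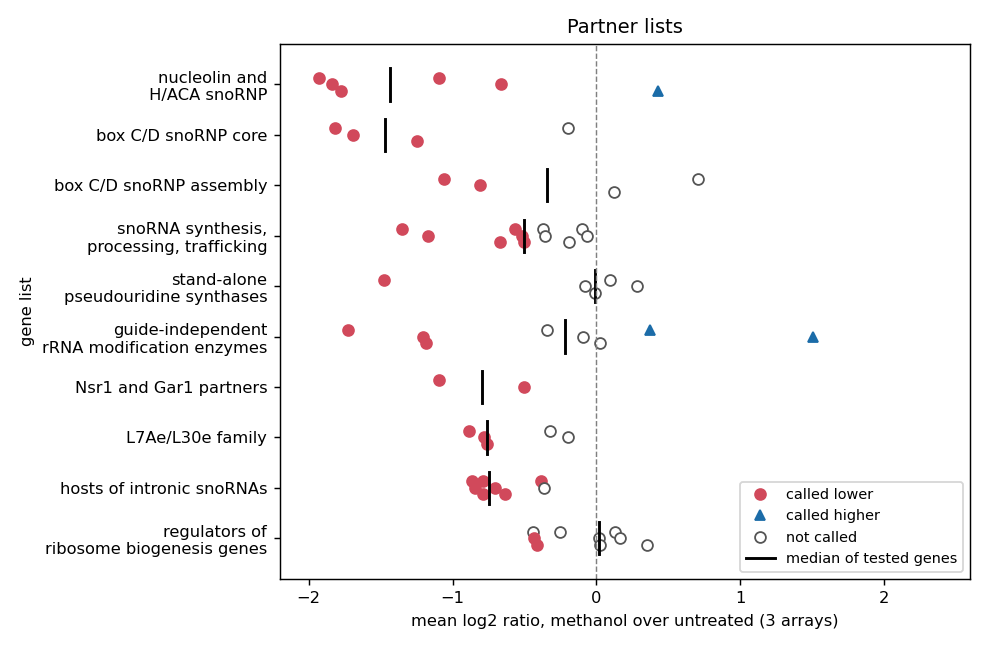
Mean log2 ratio of methanol over untreated (horizontal axis, 3 arrays) of every tested gene in the nucleolin and H/ACA set and in the 9 partner lists (vertical axis), with filled circles for genes called lower, triangles for genes called higher, open circles for genes not called and a bar at each list's median. The nucleolin and H/ACA set and the box C/D core have medians of −1.43 and −1.47, while the stand-alone synthases and the regulators have medians near 0.

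Factors that assemble box C/D particles were measured in part. Of 7 on the array 4 were tested (median −0.34), and 2 were called lower, where 24.2% of all genes tested were. RVB1 and RVB2, paired ATPases that serve several assembly pathways besides this one, stood at −1.06 ± 0.19 (limma adjusted p = 0.000702) and −0.81 ± 0.17 (limma adjusted p = 0.00208). TAH1, a cofactor of the Hsp90 chaperone, read 0.50, 1.61 and 0.01 and did not pass (mean 0.71 ± 0.82; limma adjusted p = 0.0640). Without array 3 it was called higher, at 1.06. BCD1, which is needed for box C/D RNAs to be kept, stood at 0.12 ± 0.47 and did not pass (limma adjusted p = 0.602).

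Of the genes that make, trim or move snoRNAs 11 were tested, all with means below 0 (median −0.50). Limma called 6 of them lower, where 24.2% of all genes tested were. Without array 1 the number called lower in this list was 1, and without array 2 or array 3 it was 3. Over all genes the share called lower without array 1, 2 or 3 was 13.1%, 21.8% and 17.0%. LHP1, the yeast La protein, read −0.88, −1.74 and −0.89 (mean −1.17 ± 0.49; limma adjusted p = 0.00219). RNT1, the RNase III that cuts snoRNA precursors, read −1.75, −2.37 and 0.06. Its mean of −1.35 ± 1.26 (limma adjusted p = 0.0246) covers arrays that disagree, and it was −2.06 without array 3. RNT1 lost its call without array 1, at −1.16, without array 2, at −0.84, and under limma's robust moderation with all arrays kept (adjusted p = 0.0884). RAT1, an exonuclease that trims snoRNA ends, stood at −0.67 ± 0.38 (limma adjusted p = 0.0125) and lost its call without array 1, at −0.57, and without array 2, at −0.54.

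Known partners of Nsr1 and Gar1 were few. HMT1, the arginine methyltransferase that modifies the glycine- and arginine-rich tails of Gar1, Nsr1 and other nucleolar proteins, read −1.12, −1.40 and −0.75 (mean −1.09 ± 0.33; limma adjusted p = 0.00126). SRP40, a nucleolar protein related to mammalian Nopp140, a snoRNP chaperone, read −0.73, −0.10 and −0.67 (mean −0.50 ± 0.35; limma adjusted p = 0.0325). It was not called without array 1, at −0.39, or without array 3, at −0.41. TOP1, the DNA topoisomerase that depends on Nsr1 for its place in the nucleolus, read −1.12 on array 1 and −0.07 on array 3, with no value on array 2, and was not tested.

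Of the enzymes that make pseudouridine without a guide RNA 5 were tested, with a median of −0.01, and 1 was called lower, a share of 20% where 24.2% of all genes were. PUS7, which modifies spliceosomal and transfer RNAs, was that gene, at −1.52, −1.84 and −1.07 (mean −1.48 ± 0.38; limma adjusted p = 0.000457). The other 4 tested lay between −0.08 and 0.29 and did not pass. Of those not tested for want of a value on some array, PUS1 read −0.75 on its 1 array, and DEG1, PUS4 and PUS2 averaged −0.66, −0.41 and −0.08 on 2 arrays. CBF5 lay below PUS7 on every array, with a mean difference of −0.36 ± 0.32 (SD, n = 3). Without array 2, where more genes could be tested, 2 of these synthases were called lower, as were 21.8% of all genes tested.

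Of the list of other ribosomal RNA modification genes, enzymes and the partner TRM112 among them, 8 were tested (median −0.22). Limma called 3 lower and 2 higher, where 24.2% and 26% of all genes tested were. The share called higher was thus near that of all genes. Without array 2, where more genes of this list could be tested, 5 were called lower and 1 higher. In that setting 21.8% of the 5147 genes tested were called lower, and 1218 genes were called higher. EMG1 and TSR3 act in turn on the same nucleotide of the small subunit RNA, a uridine that an H/ACA particle first turns into pseudouridine. EMG1, the methyltransferase, read −1.51, −1.85 and −1.84 (mean −1.73 ± 0.19; limma adjusted p = 0.000103). TSR3, which adds the aminocarboxypropyl group, read 1.46, 1.48 and 1.58 (mean 1.51 ± 0.06; limma adjusted p = 0.000123). The values of these 2 genes lie on opposite sides of 0. Both were named as called genes with the largest changes in this list, so nothing is read from that separation.

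DIM1, the dimethyltransferase of the small subunit RNA, stood at −1.20 ± 0.50 (limma adjusted p = 0.00196). BMT2, a methyltransferase of the large subunit RNA, was the other gene called higher, at 0.37 ± 0.16 (limma adjusted p = 0.0451; named after its value was seen). It lost that call without array 1, 2 or 3, at 0.34, 0.32 and 0.46, and in 6 further settings, the one without centring among them. TRM112, an activating partner of methyltransferases, RCM1 and RRP8 did not pass, at −0.34 ± 0.22, −0.09 ± 0.32 and 0.02 ± 0.18.

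Some yeast snoRNAs are cut out of the introns of protein genes. Of 8 such host genes 7 were called lower, where 24.2% of all genes tested were. All 8 had means below 0 (median −0.75). NOG2 and RPS22B carry box H/ACA RNAs. NOG2, a GTPase of large subunit assembly, read −1.37, −0.60 and −0.56 (mean −0.85 ± 0.45; limma adjusted p = 0.00686) and was not called without array 1, at −0.58. RPS22B, a small subunit protein gene, read −0.71, −0.74 and −0.92 (mean −0.79 ± 0.11; limma adjusted p = 0.00190). TEF4, a translation elongation factor gene that hosts a box C/D RNA, stood at −0.87 ± 0.16, and ASC1 did not pass at −0.37 ± 0.27 (limma adjusted p = 0.0682). Without array 1 the number of hosts called lower was 4, where 13.1% of all genes tested were. The arrays measured host transcripts by poly(A) RNA and say nothing of the snoRNAs themselves.

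Of 9 regulators known to act on ribosome biogenesis genes 2 were called lower, a share of 22.2% where 24.2% of all genes were. Their median was 0.02, with means from −0.44 to 0.35 on both sides of 0. SFP1, an activator of ribosomal genes, stood at −0.41 ± 0.10 (limma adjusted p = 0.0261) and HMO1, a promoter-binding protein of these genes, at −0.43 ± 0.10 (limma adjusted p = 0.0214). Neither was called without array 1, at −0.41 and −0.48, or without array 3, at −0.36 and −0.38.

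The genes with values most like those of NSR1 were sought by the root mean square difference of log2 ratios over the 3 arrays. RRB1, a chaperone gene of a large subunit ribosomal protein, was nearest at 0.092, with −1.89, −2.28 and −1.53 on the arrays. GDH1 (0.225), ARO7 (0.244), MAE1 (0.257) and NOP56 (0.268) followed, with means from −2.02 to −1.69. GDH1, ARO7 and MAE1 encode enzymes of glutamate, aromatic amino acid and malate metabolism, and NOP56 is the box C/D scaffold subunit above.

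The genes nearest to the median of the 6 tested members on each array were RPS3 (0.071), MNN9 (0.094), FRS1 (0.097), CDC60 (0.110) and RPS20 (0.128). RPS3 and RPS20 encode small subunit ribosomal proteins, FRS1 and CDC60 aminoacyl-tRNA synthetases, and MNN9 a mannosyltransferase of the Golgi.

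Of the genes next to each member, 3 share its upstream region by being read away from it, according to the order and strand of genes in the R64 reference table. DPH1, beside SHQ1, read −0.02, 0.16 and −0.29 and did not pass (limma adjusted p = 0.780), so both genes of that pair lay near 0. ESBP6, beside NAF1, read 1.01 on array 1 and 1.12 on array 3, and CWC2, beside NHP2, had a value of 0.09 on array 3 alone. Neither of these was tested. NSR1, CBF5, GAR1 and NOP10 have no such divergent neighbour in that table.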

How the data were processed

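The deposited values were log ratios per spot, 1 column per scan, read as log2. Per the labels, the authors normalized spots with flag 0 by LOWESS and then merged scans with GeneSpring. Their merged column was not used here, and background correction is not given in the sources used here. Median values per scan ran from −0.03 to 0.01, so the values appear centred, while log base and direction are unstated. Without intensities, no filter on dim spots could be set, and the number of arrays limits the precision.

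Of 6912 spots 5446 had 1 gene in the platform annotation, 0 several and 1466 none. All 5446 identifiers matched the RefSeq R64 gene table, used for names and gene order, and no coordinates are given. Identical copies of a spot's value counted once. Scans were averaged per spot, spots per gene, and arrays centred on the median gene. Centring shifted the arrays little, from medians of −0.05, −0.05 and −0.02. Both scans of an array were 1 replicate. The 4336 genes with 3 values entered an intercept-only model in limma 3.58.1 (R 4.3.3), with calls below a Benjamini-Hochberg adjusted p of 0.05. All adjusted p-values are limma's. Tested on simulated data (4336 genes, 200 changed), the fit recovered 71.8% of genes changed 1.5-fold and 99.9% of those changed 2-fold, and 7.13% of its calls were false. In the real data 50.3% of genes tested were called, a far larger share than was changed there. These rates therefore need not hold for the real calls.

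The members and the partner lists were chosen with earlier results of these data known. The genes named are the 7 members, all measured genes of lists of up to 5, the 3 called genes with the largest change in longer lists with those not called where these were 3 or fewer, the 5 genes nearest in pattern, and divergent neighbours. PUS3 was read as DEG1, its name in the reference table. SEN1 was not analysed here.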

Additional observations from a re-analysis of the deposited data

How the results depend on the processing

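The 7 members kept the sign of their mean in every alternative that gave a value, and each mean moved by less than its SD over arrays: NSR1 stayed between −2.13 and −1.78, CBF5 between −1.88 and −1.77, NHP2 between −1.99 and −1.30, GAR1 between −1.23 and −0.87, NOP10 between −0.83 and −0.45, NAF1 between 0.38 and 0.51 and SHQ1 between −0.20 and −0.04. For the settings without 1 array, the kept sign and the small shift were fixed in advance. Each member had the same sign on all its arrays, and leaving 1 out always moves a mean by less than its SD. With the low-power scans alone no member had values on all arrays, so their calls could not be counted. The members' median was −1.09 with values on at least 2 arrays, where SHQ1 entered, and −1.55 to −0.89 without 1 array. The number of members called higher was 0 without any 1 array by limma, where 1, 1 and 0 passed an unadjusted p under 0.05. Genes called lower over all genes numbered 1051, against 485 with the low-power scans alone (fewer genes tested) and 575 to 1120 without 1 array. Genes called higher numbered 1129, against 431 and 672 to 1218. Partner genes had a median of −0.72 with the low-power scans alone and −0.48 to −0.38 without 1 array. The number of partner genes called lower was 14 with the low-power scans alone, where 28.4% of the 1710 genes tested were. It was 18 to 30 without 1 array, where 13.1% to 21.8% of all genes tested were. The number of partner genes called higher was 1 without centring, with centring on all spots and with values on at least 2 arrays. It was 1 to 2 without 1 array, and 0 in limma's fit of low-power scans, where 0 passed an unadjusted p under 0.05. The median of the box C/D assembly list turned to 0.12 with values on at least 2 arrays, where all 7 genes of the list were tested. Of 30 called partner genes 11 lost the call in at least 1 alternative. Among the partner genes not called 8 gained a call in at least 1 alternative, ASC1, RPL30 and TRM112 among them. Genes whose scans differ numbered 2 and, without 1 array, 0 to 44 by limma, where 179 to 305 passed an unadjusted p under 0.05. Centring within the 8 sets of spots that share the first digit of their identifier was added after seeing the data. The fit was already paired, because treated and untreated RNA share each array and every ratio is within a pair. The searches of promoters and proteins were not run, since no sequences were used here.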
